A study of Microtus ochrogaster with 40 samples.

Results

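Reelin signalling was followed through 4 genes of the 19130 listed in every library: Reln, which encodes the secreted ligand reelin, Vldlr and Lrp8, which encode its lipoprotein receptors, and Dab1, which encodes the adaptor that binds the tails of both receptors inside the cell. All 4 were found by symbol. They were selected on measured values of these data, among them the high Reln level of D1 nuclei that carry Pdyn beside that of interneurons, so levels by class of nuclei are given as a description and not tested. The identifiers are ENSMOCG00000013520 for Reln, ENSMOCG00000004269 for Vldlr, ENSMOCG00000020941 for Lrp8 and ENSMOCG00000006254 for Dab1. Nuclear RNA came from the nucleus accumbens of 40 prairie voles, social rodents that bond with a partner, 1 animal to a library. Each vole had been housed for 16 days with either an opposite-sex mate or a same-sex peer, which gave 11 female mates, 8 female peers, 11 male mates and 10 male peers. The labels give no genotype, drug or surgery, and they do not say which animals lived together. Neighbouring label numbers always joined a female mate with a male mate (11 pairs) or same-sex peers (4 female and 5 male pairs); if these were cage partners, the 40 animals are not independent, and the p-values can be off in either direction, depending on whether a contrast lies between or within pairs.

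Reelin is a large extracellular glycoprotein that guides neurons into layers while the brain develops. In the adult brain it acts at synapses, where it binds the receptors VLDLR and APOER2 (the product of Lrp8), and these pass the signal on through phosphorylation of DAB1 by Src-family kinases. In the forebrain of rodents reelin is best known from Cajal-Retzius cells during development and from GABA interneurons in adults, while the projection neurons of the striatum, the medium spiny neurons, fall into types with the D1 or the D2 dopamine receptor.

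Counts of unique molecular identifiers (UMIs, 1 for each captured molecule) were analysed in 178387 nuclei, 1767 to 7666 in a library, with a median of 658 to 2185 UMIs per nucleus and 2949489 to 13593358 UMIs in all. A set of 25 clusters gave 14 classes named from marker lists, while 9.93% of nuclei lay in unnamed clusters. D1 and D2 medium spiny neuron-like nuclei, the defining types of the labelled tissue, were found in every library. D1 nuclei made up 9.71% (male peer 8) to 31.0% (male mate 2) of a library, and glutamate neuron-like nuclei 0.438% (male peer 5) to 41.0% (male mate 2). The library of male mate 2, the shallowest, held almost all of its D1 nuclei in 1 shallow cluster led by Col24a1, and in female peer 1 the unnamed clusters held 37.8% of nuclei. At most 1.53% of the barcodes of the smaller of 2 libraries were shared. No cluster took its name from the Cajal-Retzius list.

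Of the classes compared, Reln, the ligand, had its highest mean in D1 medium spiny neuron-like nuclei. Its level there, in counts per 1000000 UMIs of the class (CPM), ran from 299 in female peer 4 through a median of 585 to 1039 in female mate 9, with a mean of 615 ± 169 (SD, n = 40). Parvalbumin interneuron-like nuclei followed at 349 ± 141 CPM (SD, n = 40), a class whose leading genes also included Sst. With 1000 UMIs drawn from each nucleus, 439 nuclei of this class had a Pvalb UMI and 1920 an Sst UMI. At a clustering resolution of 2, a parvalbumin interneuron-like cluster of 4760 nuclei was at 443 CPM over all animals. An other GABA neuron-like cluster of 2081 nuclei was at 145 CPM. Vip or Cck interneuron-like nuclei stood at 158 ± 144 CPM (SD, n = 39), somatostatin interneuron-like nuclei, led by Npy, Nos1 and Sst, at 139 ± 94.7 (SD, n = 32), and D2 nuclei at 114 ± 48.6 (SD, n = 40). Cholinergic interneuron-like nuclei were lowest at 11.6 ± 16.3 CPM (SD, n = 25), with a median of 0. Between these lay microglia-like (68.5), eccentric medium spiny neuron-like (67.1), endothelial-like (66.0), glutamate neuron-like (28.1), oligodendrocyte precursor-like (24.5), oligodendrocyte-like (22.6) and astrocyte-like nuclei (22.4 CPM).

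The first steps of this order held within most animals. D1 nuclei were above parvalbumin interneuron-like nuclei in 39 of 40 animals, and the latter above Vip or Cck interneuron-like nuclei in 34 of 39, although both gaps in mean were smaller than the sum of the SDs. The next neighbours did not differ beyond their spread: Vip or Cck interneuron-like nuclei were above somatostatin interneuron-like nuclei in 17 of 32 animals, and these above D2 nuclei in 17 of 32. Microglia-like against eccentric nuclei (15 of 39 animals higher) and oligodendrocyte-like against astrocyte-like nuclei (16 of 39) had no order either. The Reln levels of microglia-like and astrocyte-like nuclei, and so their places, also moved with the processing, as given at the end.

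**Figure D1:**
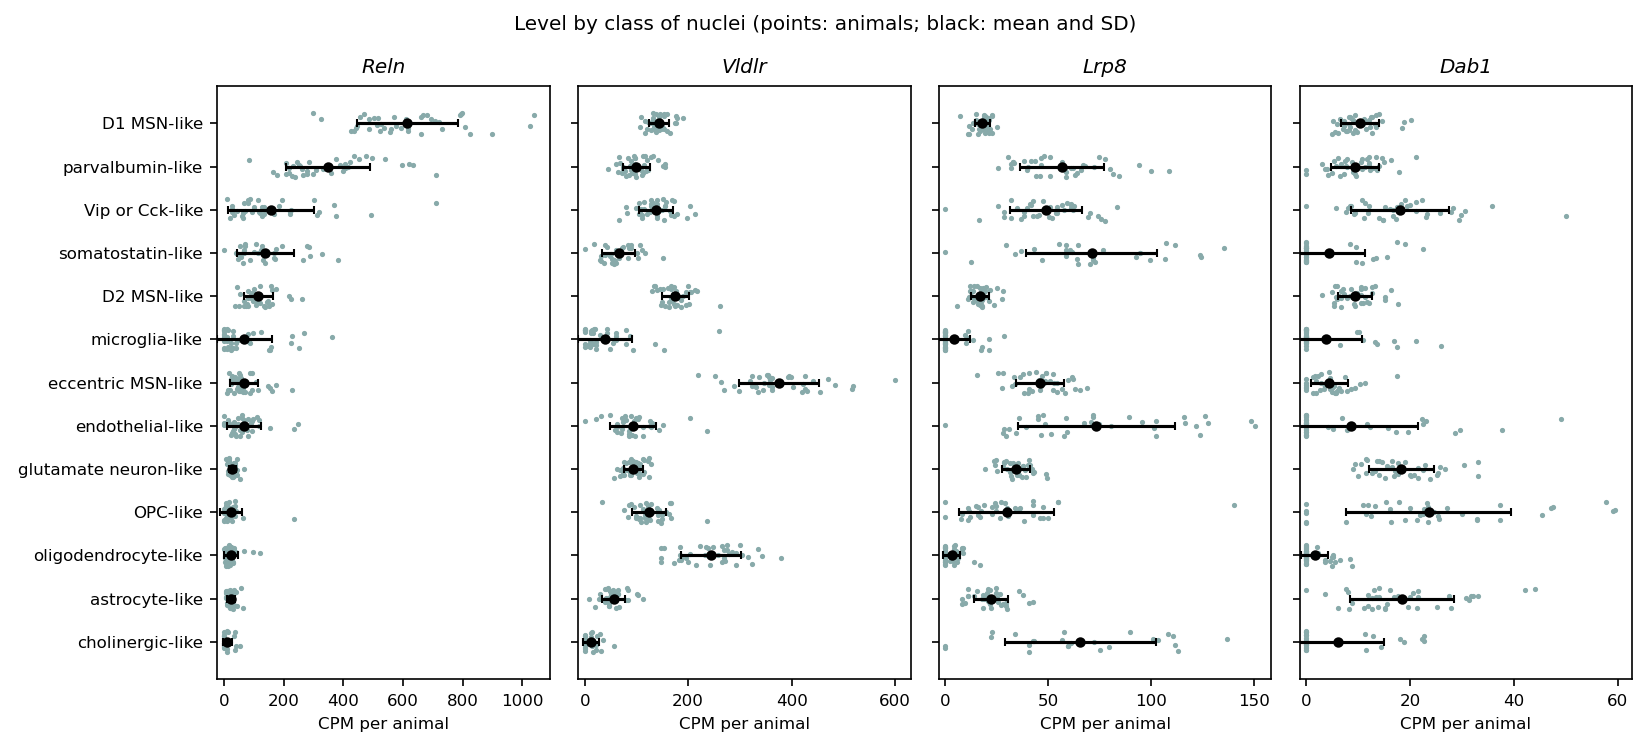
Level of Reln, Vldlr, Lrp8 and Dab1 in each class of nuclei, in CPM of the class on a linear axis that differs between panels. Each point is 1 animal with at least 20 nuclei of the class and black marks give the mean and SD; Reln peaks in D1 nuclei at 615 CPM, Vldlr in eccentric nuclei at 375, and Lrp8 and Dab1 have no single leading class.

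Most Reln UMIs lay in D1 nuclei. This class held 21.3% of nuclei and 23.8% of all UMIs, but 68.1% ± 7.45 (SD, n = 40 animals) of Reln UMIs. The 4 interneuron classes together held 7.15% of nuclei and 11.9% ± 6.19 of Reln UMIs, and D2 nuclei held 10.2% ± 3.11. The other 3 genes were spread more widely, with 23.0% ± 5.02 of Vldlr, 15.1% ± 4.90 of Lrp8 and 20.4% ± 7.06 of Dab1 UMIs in D1 nuclei.

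**Figure D2:**
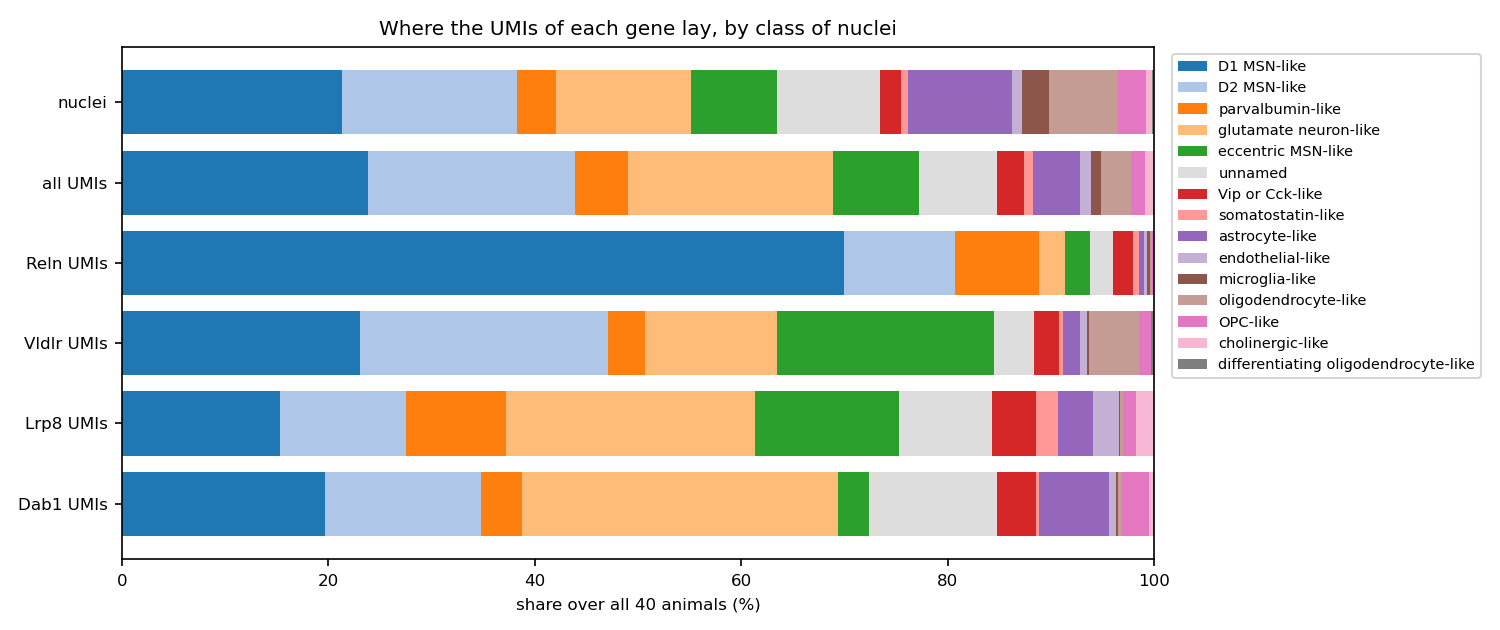
Share of nuclei, of all UMIs and of the UMIs of each gene that lay in each class, summed over the 40 animals, in percent. D1 nuclei take up 70.0% of the Reln bar against 21.3% of the bar of nuclei.

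The D1 class joined 3 clusters. Those whose level of Pdyn, the precursor of dynorphin, was above that of the whole D1 class held 25134 nuclei. They are called the D1 Pdyn clusters and were led by Pdyn or by immediate early genes together with Pdyn. The third, led by Col24a1, held 12902. Reln was at 660 ± 180 CPM (SD, n = 40) in the D1 Pdyn clusters and at 427 ± 133 (SD, n = 40) in the Col24a1-led cluster, and higher in the former in 40 of 40 animals. The smaller Pdyn cluster, led by immediate early genes such as Fosb and Npas4, stood at 783 CPM over all animals against 673 in the larger one. At a resolution of 2 the gap between the Pdyn clusters was wider, with 989 CPM in one led by Pdyn, Tac1 and Npas4 and 580 in one led by Dlk1 and Pdyn. The latter was level with a cluster led by Slc35d3 and DRD1A, at 577 CPM of Reln. That cluster had Pdyn among its leading genes but did not count as a Pdyn cluster. Its Pdyn level, 438 CPM against 816, was not above that of the whole D1 class. The one led by Col24a1 was at 470 CPM of Reln.

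Reln in the D1 Pdyn clusters was higher than the mean of interneurons in 40 of 40 animals. The interneuron values are means over whole classes. Splits by Sst or Npy in the parvalbumin interneuron-like class, and by Npy in the Vip or Cck one, show nuclei with a far higher Reln level. The ratios hold for the class means only. The 4 interneuron classes summed were at 243 ± 90.6 CPM (SD, n = 40), from 75.2 to 511, while the D1 Pdyn clusters ran from 310 to 1151. The log2 ratio within an animal, with 5 CPM added to both values, averaged 1.47 ± 0.60 (SD, n = 40). It averaged 0.97 ± 0.54 against parvalbumin interneuron-like nuclei (39 of 40 animals higher), 2.54 ± 1.25 against somatostatin interneuron-like (32 of 32), 2.48 ± 1.36 against Vip or Cck interneuron-like (37 of 39) and 5.91 ± 1.14 against cholinergic nuclei (25 of 25). The ranges of the D1 Pdyn clusters and of parvalbumin, somatostatin and Vip or Cck interneuron-like nuclei overlapped, and those of the D1 Pdyn clusters and cholinergic nuclei did not.

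The share of nuclei with at least 1 Reln UMI was also highest in D1 nuclei, followed by parvalbumin interneuron-like nuclei. At 1000 UMIs drawn from each nucleus, which leaves out shallower nuclei, 42.3% of D1 Pdyn nuclei had a Reln UMI (63.2% unthinned, median depth 2271 UMIs, 2.10% left out). It was 31.8% in the Col24a1-led cluster (32.1% unthinned, median 1136, 43.7% left out), 17.7% in parvalbumin interneuron-like nuclei (27.0% unthinned, median 2116) and 8.91% in D2 nuclei (16.2% unthinned, median 1997). Cholinergic nuclei, as deep at a median of 2220 UMIs (1.44% unthinned), had 0.857%, and glutamate neuron-like nuclei, at a median of 2480 UMIs (4.90% unthinned), had 2.20%. Free RNA in droplets, not estimated here, can give UMIs to nuclei that do not express a gene. So the 1.56% of oligodendrocyte-like (83.4% left out) and 2.22% of astrocyte-like nuclei (81.0% left out) with a Reln UMI cannot be read as expression. Among microglia-like nuclei 11.9% had a Reln UMI at 1000 UMIs, above the share of D2 nuclei, but only 335 nuclei were that deep (92.9% left out; 2.34% unthinned, median 613 UMIs). With a minimum of 1000 UMIs, microglia-like nuclei stood at 219 CPM of Reln, against 68.5 with all of them. At a resolution of 2, a microglia-like cluster of 298 nuclei led by Mrc1 and Cd74 was at 206 CPM of Reln and 145 of Pdyn. The other, of 4378 nuclei, was at 20.9 and 19.5 CPM, so the class values are not the level of most microglia-like nuclei. The part of free RNA in these values was not tested.

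Within classes, Reln followed other transcripts of the same nuclei, all at 1000 UMIs. In the D1 class it was at 747 ± 195 CPM in nuclei with a Pdyn UMI and at 523 ± 156 in those without (SD, n = 39), higher with Pdyn in 39 of 39 animals. With Tac1, the precursor of substance P, it was at 688 ± 186 CPM against 436 ± 119 without (SD, n = 40; 40 of 40 animals), and with DRD1A, the D1 receptor, at 660 ± 179 against 552 ± 161 (36 of 40). D2 nuclei with a DRD1A UMI had Reln at 215 ± 125 CPM and those without at 97.0 ± 45.0 (SD, n = 14, higher with DRD1A in 13 animals). The part of free RNA in the D2 level was not tested. The interneuron classes were split after their levels had been seen. Parvalbumin interneuron-like nuclei with an Sst UMI had Reln at 661 ± 275 CPM and those without at 107 ± 54.4 (SD, n = 35; 35 of 35 animals). The 439 nuclei of this class with a Pvalb UMI were at 68.3 CPM over all animals, against 339 in the others. With Npy the level was 762 ± 343 CPM, and without it 244 ± 100 (SD, n = 26; 26 of 26 animals). In Vip or Cck interneuron-like nuclei, the 334 with an Npy UMI were at 844 CPM over all animals and the other 2916 at 55.6, whereas the 535 with a Vip UMI were at 33.6. Its 69 nuclei with an Sst UMI were at 203 CPM, from 14 Reln UMIs, and those without at 135. Over all animals, D1 nuclei were at 763 CPM with a Pdyn UMI and at 537 without. Parvalbumin interneuron-like nuclei with Sst (680) or Npy (750) lay between these, and Vip or Cck interneuron-like nuclei with Npy (844) above both. The order of the class means therefore did not hold for every part of the interneuron classes. In the somatostatin class, the 1127 nuclei with an Sst UMI were at 119 CPM and the 1113 with an Npy UMI at 119; only 7 and 21 nuclei lacked them, too few for a comparison.

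**Figure D3:**
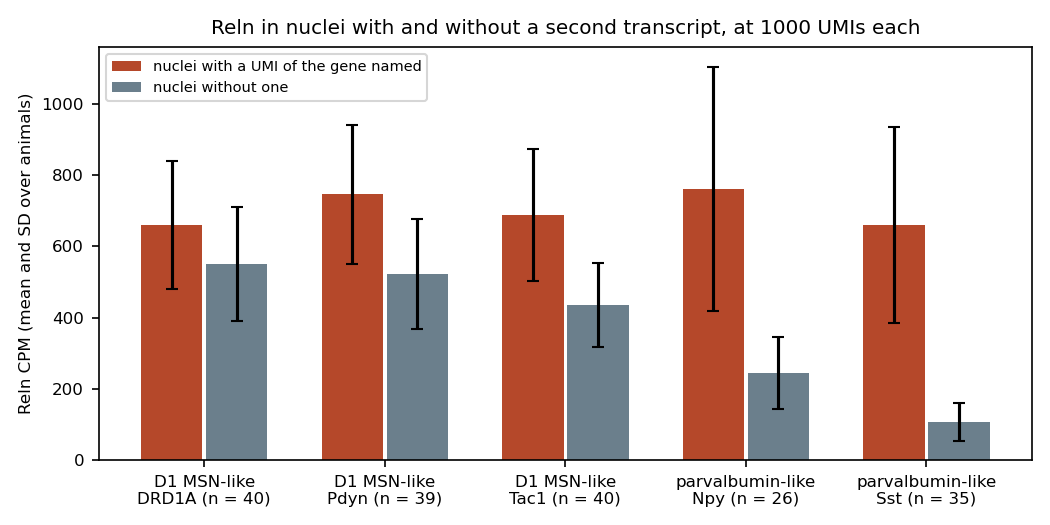
Reln level in nuclei with a UMI of a second gene (red) and without one (grey), with every nucleus drawn down to 1000 UMIs; bars are means over animals with at least 20 nuclei on both sides and error bars SDs. In parvalbumin interneuron-like nuclei Reln stands at 661 CPM with Sst and 107 CPM without, a wider gap than for Pdyn in D1 nuclei (747 and 523 CPM).

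Vldlr, a receptor, had another pattern. It was highest in eccentric medium spiny neuron-like nuclei, a projection neuron type set apart from the common D1 and D2 types, at 375 ± 77.4 CPM (SD, n = 40; lowest 219, median 359, highest 599). Oligodendrocyte-like nuclei, the myelinating glia, followed at 244 ± 58.5, D2 nuclei at 175 ± 25.9 and D1 nuclei at 143 ± 19.2 CPM (SD, n = 40 each). These steps held in 38, 36 and 38 of 40 animals. Differentiating oligodendrocyte-like nuclei (374) were too few per animal to enter this order. Over all animals they were at 291 CPM of Vldlr, against 247 in oligodendrocyte-like nuclei. D1 against Vip or Cck interneuron-like nuclei (137 CPM) had no order, with 22 of 39 animals higher. Cholinergic nuclei were lowest at 11.9 ± 15.0 CPM (SD, n = 25). The share with a Vldlr UMI, at 1000 UMIs each, was 30.7% in eccentric nuclei (45.0% unthinned, median 1648 UMIs) and 0.571% in cholinergic nuclei (2.21% unthinned, median 2220 UMIs). In a D2 cluster led by immediate early genes Vldlr was at 242 CPM over all animals, against 161 in the other D2 cluster. At a resolution of 2, however, the D2 cluster led by such genes was at 179 CPM, 2 other D2 clusters were at 158 each, and the highest, at 281, was led by Cpne7.

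Lrp8, the second receptor, was low in the projection neurons that carry Reln. It was at 18.0 ± 3.70 CPM in D1 and 16.8 ± 4.44 in D2 nuclei (SD, n = 40), with 24 of 40 animals higher in D1. Endothelial-like nuclei (73.3 ± 38.2, n = 36), somatostatin (70.9 ± 31.9, n = 32), cholinergic (65.6 ± 36.9, n = 25), parvalbumin (56.6 ± 20.2, n = 40) and Vip or Cck interneuron-like nuclei (48.7 ± 17.5, n = 39) and eccentric nuclei (46.0 ± 11.6 CPM, n = 40) formed the upper range. Neighbours among these did not differ beyond their spread, from 12 of 24 animals for somatostatin against cholinergic nuclei to 25 of 39 for parvalbumin against Vip or Cck interneuron-like nuclei. Oligodendrocyte-like nuclei, high in Vldlr, had 3.06 ± 4.09 CPM of Lrp8 (SD, n = 40), from 28 UMIs in all. An unnamed cluster led by Igfbpl1, Mki67 and Dlx1, genes of immature or dividing cells, had 84.2 CPM over all animals. At a resolution of 2, the eccentric cluster led by Col14a1 was at 81.7 CPM of Lrp8 over all animals and the one led by Foxp2 and Otof at 38.8.

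Dab1, the adaptor, gave few UMIs in any class, 3947 in all. Oligodendrocyte precursor-like (23.6 ± 15.9, n = 40), astrocyte-like (18.4 ± 10.1, n = 39), glutamate neuron-like (18.3 ± 6.28, n = 39) and Vip or Cck interneuron-like nuclei (18.0 ± 9.48 CPM, n = 39) led, with no order between neighbours (25 of 39, 16 of 38 and 20 of 38 animals higher). D1 nuclei were at 10.3 ± 3.65 and D2 nuclei at 9.38 ± 3.34 CPM (SD, n = 40), and eccentric nuclei, highest in Vldlr, at 4.47 ± 3.60. At 1000 UMIs, 0.828% of D1 nuclei held a Dab1 UMI (1.97% unthinned, median depth 1916). The share was 0.857% in cholinergic nuclei, from 6 of 700 nuclei (1.44% unthinned, median 2220). In oligodendrocyte-like nuclei it was 0.151%, from 3 of 1993 nuclei with 83.4% left out (0.133% unthinned, median 668). So few nuclei give no firm order.

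No pair of the 4 genes had closely like patterns over classes. Across 13 classes, Pearson's r of the log2 levels was 0.32 between Reln and Vldlr, 0.12 between Reln and Lrp8, -0.02 between Reln and Dab1, -0.19 between Vldlr and Lrp8, -0.03 between Vldlr and Dab1 and 0.29 between Lrp8 and Dab1; the classes come from the same libraries and differ in depth. The genes most like Reln were Synpr (r = 0.87), a synaptic vesicle protein, Peg10 (0.86), ENSMOCG00000001220 (0.83), Slc32a1 (0.83), the vesicular GABA transporter, and Asb13 (0.83). For Vldlr they included Cttnbp2 (0.84), Tnrc6c (0.82), Nup133 (0.82) and Sec14l1 (0.80). For Lrp8 they were Gclm (0.92), ENSMOCG00000020435 (0.91), ENSMOCG00000006123 (0.91), Txnrd1 (0.90) and Pcdh19 (0.89), and for Dab1 Rbfa (0.91), Nt5c1a (0.89), Ptpn4 (0.87), ENSMOCG00000013350 (0.87) and Shc3 (0.86).

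D1 nuclei with a Reln UMI were compared with D1 nuclei without one from the same animal, at 1000 UMIs each, to ask which other transcripts go with Reln. There were 12706 nuclei with and 19169 without, from 40 animals; a nucleus without a UMI at this depth may still express Reln. Of 7451 genes tested with Reln left out, edgeR's quasi-likelihood test with the animal as a block called 728 higher (9.77%) and 427 lower (5.73%) at an adjusted p under 0.05. Since Pdyn and DRD1A belong to the rule that brought Reln forward, their rows are a description. Pdyn is among the 728. Tac1 was at 2245 ± 509 CPM with and 1601 ± 373 without Reln (SD, n = 40; log2 fold change 0.51, SE 0.02, edgeR adjusted p 8.96e-99), higher in 40 of 40 animals. Pdyn was at 782 ± 196 CPM with and 545 ± 166 without. Vgf, a secreted peptide precursor (0.46), Pam, which amidates peptides (0.44), and Ptprn, a protein of dense-core vesicles (0.31), also rose, as did Calb1, the calcium buffer calbindin (0.68), Nrgn, a postsynaptic calmodulin-binding protein (0.56), Spock3 (0.53), ENSMOCG00000018995 (0.51) and Atp2b1, a calcium pump (0.27).

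Penk, the enkephalin precursor that marks D2 neurons, was the lower gene with the smallest p, at 130 ± 89.0 CPM with and 306 ± 293 without Reln (SD, n = 40; log2 fold change -1.16, SE 0.05, edgeR adjusted p 8.05e-86), and higher with Reln in 2 of 40 animals. Col24a1, which led the D1 cluster poorer in Reln, fell by 0.66 on the log2 scale. Gucy1a1, a subunit of the nitric oxide receptor (-0.50), Lrrn3 (-0.63), Ppp1r2, an inhibitor of protein phosphatase 1 (-0.32), Afap1 (-0.67), ENSMOCG00000014414 (-1.38), Dner (-1.12), Angpt1 (-0.89) and Adcyap1r1, the PACAP receptor (-0.60), also fell. D2 markers moved with the comparison: the 7 genes of that list summed to 268 ± 81.4 CPM with (166 to 593) and 496 ± 301 without Reln (242 to 2206), higher with Reln in 1 of 40 animals, and 2 of the 3 tested were lower. Of the 4 D1 markers tested, 3 were higher, beside 9.77% of all genes; they include the genes of the rule and are a description. The part of D2 RNA in the result was not tested. Among the D1 Pdyn clusters alone, an added comparison that leaves any D2 RNA within single nuclei in place, 827 of 6602 genes were called, 764 of them shared in direction with the 1155, and Penk was at -0.74 and Tac1 at 0.45.

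Of the other 3 members, Vldlr alone could be tested between D1 nuclei with and without Reln, since Lrp8 and Dab1 were too low. Vldlr was at 149 ± 34.5 CPM with and 151 ± 26.1 without (SD, n = 40; log2 fold change 0.01, SE 0.05, edgeR adjusted p 0.906), higher in 19 of 40 animals. Of 66 other genes of the reelin pathway found in the files, 43 were tested and 15 called, 9 higher and 6 lower, with a median log2 fold change of 0.04 beside -0.00 over all genes. Over all genes tested, 9.77% were called higher and 5.73% lower. Under at least 1 alternative Dlg4, Clu, Apoe, Adamts3, Cdk5, Pafah1b3, Afdn and Mapk8ip2 lost their call, in the same direction. Those higher were App (0.17), the amyloid precursor protein, the NMDA receptor subunits Grin1 (0.12), Grin2a (0.20) and Grin2b (0.21), the postsynaptic scaffold Dlg4 (0.16), Cdk5r2 (0.33), an activator of the kinase Cdk5, Clu (0.13), Afdn (0.15) and Mapk8ip2 (0.09). Those lower were Cdh2 (-0.37), a neuronal cadherin, Efnb1 (-0.34), Pafah1b3 (-0.25), Apoe (-0.20), the kinase Cdk5 itself (-0.16) and Adamts3 (-0.08), a protease that cuts reelin.

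**Figure D4:**
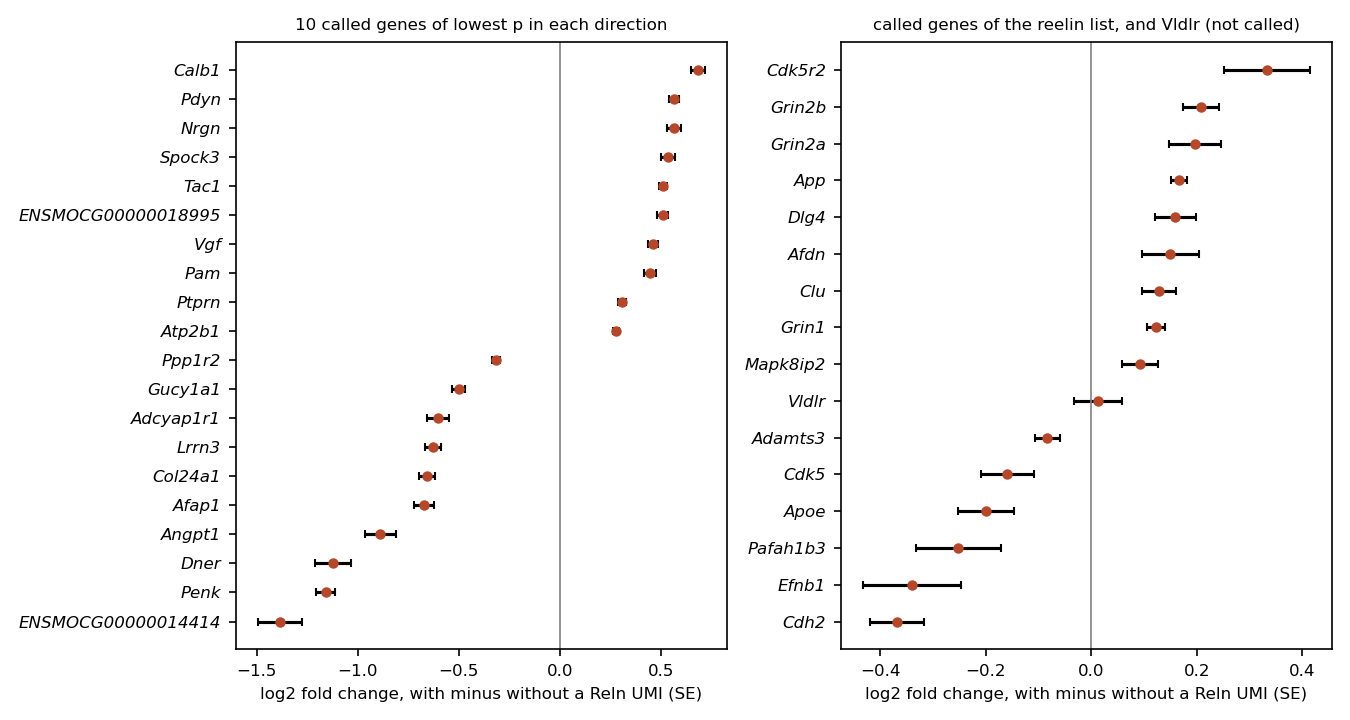
Log2 fold change of genes between D1 nuclei with and without a Reln UMI, with its SE, from 40 animals: at left the 10 called genes of lowest p in each direction, at right the called genes of the reelin pathway list and Vldlr. Of the peptide precursors, Tac1 (0.51) lies right of 0 and Penk (-1.16) left, and Vldlr (0.01) lies on it. Pdyn (0.56), right of 0, belongs to the rule that brought Reln forward and is shown as a description.

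Whether the levels went with the type of partner was tested on counts summed per animal. Over all nuclei, Reln ran from 149 through a median of 226 to 449 CPM in female mates, from 111 through 160 to 247 in female peers, from 129 through 199 to 264 in male mates and from 101 through 238 to 318 in male peers. The 4 groups overlapped, and the 2 highest values were those of female mates. Averaged over the sexes the mate minus peer log2 fold change was 0.18 (SE 0.14, edgeR p 0.202, adjusted p 0.754), with 12 of 22 mates above the mean of the peers. No gene of 13718 was called (0%); 963 had an unadjusted p under 0.05, and DESeq2 called 0. Vldlr was at 148 ± 18.1 CPM in 22 mates and 148 ± 31.3 in 18 peers (0.01, SE 0.08), Lrp8 at 29.3 ± 4.49 and 28.0 ± 3.94 (0.06, SE 0.07) and Dab1 at 12.1 ± 3.12 and 12.3 ± 2.59 CPM (-0.04, SE 0.11; SDs), with edgeR adjusted p from 0.806 to 0.984. In sums over all nuclei, fewer nuclei of a type and less RNA in each cannot be told apart.

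The pairing difference of Reln had opposite signs in the sexes but did not survive correction. In females it was 0.58 (SE 0.20, edgeR p 0.00690, adjusted p 0.645; 9 of 11 mates above the mean of the peers), and in males -0.22 (SE 0.19, p 0.249, adjusted p 1.00; 2 of 11 mates above it). The difference of the 2, the interaction of pairing and sex, was 0.80 (SE 0.28, p 0.00618, edgeR adjusted p 1.00). No gene was called for it (0%), and 1.95% of genes had an unadjusted p under 0.05. With the share of D1 nuclei as a covariate the interaction was 0.47 (SE 0.25, p 0.0693). Each gene's level over all nuclei was set against the share of the class that held most of its UMIs pooled over animals, so a relation is partly built in and its p is no independent support. Across the 40 animals, Reln over all nuclei went with the share of D1 nuclei (Pearson's r = 0.57, Spearman's rho = 0.55, permutation p 0.00014 and 0.00028, 0.00028 and 0.00056 adjusted over 4 relations). The r was 0.56 without male mate 2 and male peer 8, 0.47 in mates and 0.66 in peers. For Vldlr this class was D2, at 24.0% of pooled UMIs against 23.1% in D1 nuclei; by the mean over animals both held about as much (22.9% and 23.0%). Vldlr went with the share of D2 nuclei (r = 0.66, rho = 0.73, both at 1e-05, the smallest p that 100000 resamples can give; r = 0.70 without female peer 1 and male mate 2). For Lrp8 and Dab1 the relation to the glutamate share did not pass the threshold (r = 0.31 and 0.21, adjusted permutation p 0.0764 and 0.199, rho = 0.09 and 0.23), and for Lrp8 r was -0.02 without male mate 2 and male peer 9. Within mates r was 0.67 and within peers -0.43 for Lrp8, a difference that was not tested. The mates include male mate 2, the highest animal both in Lrp8 over all nuclei (41.7 CPM) and in the glutamate share (41.0%).

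Within the D1 Pdyn clusters Reln ran from 481 through a median of 647 to 1151 CPM in female mates, from 310 through 530 to 757 in female peers, from 402 through 672 to 747 in male mates and from 456 through 747 to 929 in male peers. In 10 of 11 male mates it lay below the mean of male peers, and in 8 of 11 female mates above that of female peers, and all groups overlapped. The pairing difference was 0.43 (SE 0.16, edgeR p 0.0109, adjusted p 0.825) in females and -0.25 (SE 0.15, p 0.109, adjusted p 1.00) in males, and their difference 0.68 (SE 0.22, p 0.00373, adjusted p 1.00), in a fit where 3.49% of genes had an unadjusted p under 0.05. Parvalbumin interneuron-like nuclei, the next class in Reln, had an interaction of 0.08 (SE 0.34, edgeR p 0.823, adjusted p 1.00), at 343 ± 124 CPM in female mates (n = 11), 293 ± 148 in female peers (n = 8), 393 ± 86.5 in male mates (n = 11) and 354 ± 196 in male peers (n = 10). The female peers include 1 animal, female peer 8, at 634 CPM; without it, chosen after its value was seen, the other 7 were at 244 ± 59.5 CPM and the interaction was 0.36 (SE 0.33, edgeR p 0.276, adjusted p 1.00). Whether the interaction differed between these classes was not tested. Lrp8 in the D1 Pdyn clusters was at 20.1 ± 7.55 CPM in 22 mates and 16.5 ± 5.61 in 18 peers (SDs, pairing 0.15, SE 0.13, edgeR p 0.254, adjusted p 0.977). In 20 of 22 mates it was above the mean of the peers, but most peers were above that mean too, and the groups overlapped. The lower peers included male peer 8 at 5.02 CPM from 6 UMIs and male peer 1 at 9.21 CPM from 3 UMIs. The highest mate, male mate 2 at 50.9 CPM, rested on 5 UMIs in 127 nuclei; without it the other 21 mates were at 18.7 ± 3.23 CPM (SD; pairing 0.14, SE 0.13, edgeR adjusted p 0.995).

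**Figure D5:**
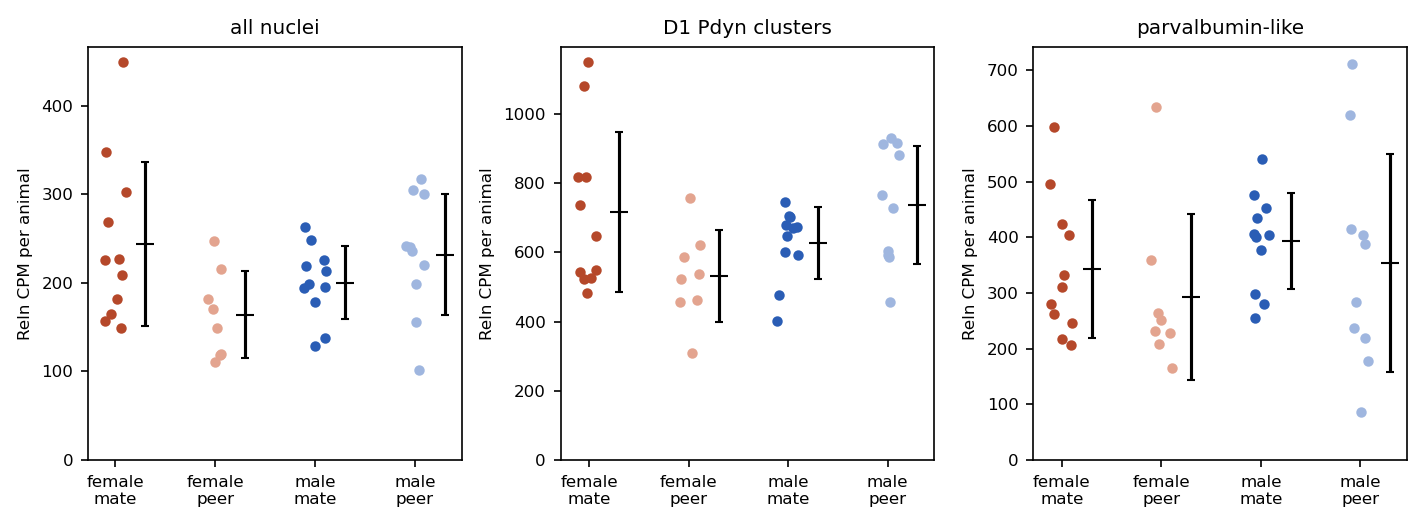
Reln level of each animal by sex and partner, over all nuclei, in the D1 Pdyn clusters and in parvalbumin interneuron-like nuclei, in CPM on axes that start at 0; black marks give the mean and SD beside the points. In the D1 Pdyn clusters female mates (mean 716) lie above female peers (532) and male mates (627) below male peers (737), with overlap; no difference passed the adjusted threshold.

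Over the 12 classes with enough animals, none of 84282 pairs of a gene and a class was called for pairing (0%) or for the interaction (0%), with 4456 and 2310 pairs at an unadjusted p under 0.05; for pairing DESeq2 called 0. Reln was tested in 9 classes, Vldlr in 9, Lrp8 in 7 and Dab1 in 4, and the others were too low. For the interaction, Reln had an unadjusted p under 0.05 in 5 of 9 classes, beside 2.74% of all pairs. These were D1 (0.62, SE 0.23), D2 (1.00, SE 0.34), eccentric (1.72, SE 0.48) and astrocyte-like nuclei (1.41, SE 0.47), all of the sign of the D1 Pdyn clusters, and Vip or Cck interneuron-like nuclei (-1.34, SE 0.58), of the opposite sign. The last was -0.87 (SE 0.59, edgeR p 0.145, adjusted p 1.00) without female peer 6, the highest of 7 female peers in that class. Male mate 4, the highest animal of the class at 709 CPM, was kept in both fits. The classes come from the same libraries, so these tests are not independent and their number is no repeated support. The Reln level was 114 CPM in D2, 67.1 in eccentric and 22.4 in astrocyte-like nuclei, beside 615 in D1 nuclei. The part of free RNA in these classes was not tested. Lrp8, Dab1 and Vldlr had no class with such a p for pairing or the interaction. Between the sexes 2 of 13718 genes were called over all nuclei (0.0146%) and 19 of 84282 pairs within classes (0.0225%), none of them a member. For Vldlr the sex difference had an unadjusted p under 0.05 in 2 of 9 classes, beside 5.43% of all pairs: eccentric nuclei (female minus male -0.22, SE 0.09, edgeR adjusted p 1.00) and astrocyte-like nuclei (0.39, SE 0.15, adjusted p 0.933), with opposite signs.

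Of the pathway list, 65 genes were tested for pairing over all nuclei and 0 were called by edgeR, with 4 at an unadjusted p under 0.05, 2 of them higher in mates. Over all genes 7.02% had such a p, so the list's count is near the background and is no result about the list. The median log2 fold change of the list was 0.01, beside -0.01 over all genes. The lowest p were those of Src, a kinase that phosphorylates DAB1, at 22.7 ± 3.37 CPM in mates and 20.1 ± 3.42 in peers (0.18, SE 0.08), Apoe, a lipid carrier that binds the same receptors, at 695 ± 225 and 855 ± 223 (-0.30, SE 0.14), and Gsk3b, a kinase downstream of DAB1, at 565 ± 41.7 and 537 ± 58.9 CPM (0.09, SE 0.04; SD, n = 22 and 18). Their edgeR adjusted p was 0.697 each. For the interaction 0 of 65 were called, and 2 had an unadjusted p under 0.05, beside 1.95% of all genes.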

How the data were processed

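The files hold raw UMI counts per gene and barcode, deposited by the authors without normalization and made with Cell Ranger 3.1.0, per the submitters' processing notes; genome build and barcode selection are not given in the sources used here. Gene names come from the files. The 4 genes and all lists were chosen with earlier results of these data known.

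A barcode was used if it had 500 UMIs or more, of which 13 mitochondrial genes gave 5% at most, and 7608 doublets (4.09%, scored within libraries against simulated pairs at 0.8% per 1000 barcodes) were removed. Counts were scaled to 10000 and log-transformed, 2000 variable genes without the 4 were scaled to unit SD, and Leiden clustering (resolution 1) was run on 30 components with 15 nearest neighbours (scanpy 1.11.5, leidenalg 0.10.2). Scaling was added because a first clustering merged all interneurons, before groups were compared. Clusters took the name of the leading of 20 marker lists (144 of 159 genes used) if 3 markers reached a log2 fold of 1. A cluster stayed unnamed if it had under 50 nuclei, strong markers of another lineage, or more leading genes of another list. A shallow cluster with no leading gene of its own list also stayed unnamed. These rules were set after seeing the clusters. Classes are rebuilt, and names may differ from the study's.

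Counts were summed per animal and class with at least 20 nuclei, and tested by edgeR 4.0.16 (quasi-likelihood, R 4.3.3) with 1 mean per group and Benjamini-Hochberg adjustment within a fit, in classes with 6 animals in each group. Differentiating oligodendrocyte-like and cholinergic nuclei had too few. Where no label says otherwise, the spread between animals is the error; animals that shared a cage may not be independent, but the edgeR fits treat all 40 as independent. Named were the members, pathway genes called or the 3 of lowest p, the 5 genes of highest r per member among those at 20 CPM or more in a class (1 is not reported here), and 10 called genes in each direction for nuclei with Reln. Scripts were tested on simulated data. Alternatives were DESeq2 1.42.0, other size factors, no filter, doublets kept, a minimum of 1000 UMIs, a resolution of 2, and leaving out male mate 2 or female peer 1.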

Additional observations from a re-analysis of the deposited data

Results flagged for a closer look

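In 35 sets of 4 to 10 animals (the levels of the 4 genes over all nuclei and in their leading classes), 2 held an animal farther from the rest than Dixon's 95% limit. By chance about 1 in 20 is flagged. Female and male mates number 11 each, so where all had enough nuclei they lay outside this range and were not searched. Reln in parvalbumin interneuron-like nuclei of female peer 8 was at 634 CPM, from 357 UMIs in 192 nuclei, and the next of the 8 female peers at 358. Reln in Vip or Cck interneuron-like nuclei of female peer 6 was at 494 CPM, from 122 UMIs in 83 nuclei, and the next of 7 at 223.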

How the results depend on the processing

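No alternative called a gene for pairing over all nuclei. Within classes, testing without the filter on low counts gave 4 called gene and class pairs (3 endothelial-like, 1 somatostatin interneuron-like) in place of 0, and the 7 other alternatives called 0. Without male mate 2 or without female peer 1 both counts were 0. Between D1 nuclei with and without Reln, 827 (D1 Pdyn clusters only) to 1443 genes (1500 UMIs) were called in place of 1155, and 15 of 213 values of named genes fell short of the threshold, all in the same direction and all of the pathway list (Dlg4, Clu, Apoe, Adamts3, Cdk5, Pafah1b3, Afdn and Mapk8ip2). With at least 2 Reln UMIs Tac1 was at 0.79 and Vgf at 0.76. Reln in the D1 Pdyn clusters against interneurons ranged from 1.45 to 1.54 on the log2 scale. Of 300 class levels under alternatives, 4 moved by more than 1 SD: Reln in astrocyte-like nuclei (37.9 CPM at a minimum of 1000 UMIs, 38.4 with doublets kept) and, at that minimum, Reln (219) and Dab1 (11.8) in microglia-like nuclei. The interaction of Reln in the D1 Pdyn clusters ranged from 0.66 to 0.70 by edgeR, with an adjusted p of 1.00 throughout. No number in the labels ties a mate to a peer. As an alternative added after seeing the data, limma 3.58.1 was run with neighbouring label numbers as a random block. The correlation within neighbours was 0.18 over all nuclei and 0.10 in the D1 Pdyn clusters. With the block 0 genes were called for pairing over all nuclei and 622 had an unadjusted p under 0.05, against 0 and 952 by limma without it. The interaction of Reln was 0.73 (limma p 0.0167, adjusted p 1.00) over all nuclei and 0.64 (p 0.00746, adjusted p 0.997) in the D1 Pdyn clusters. Few UMIs limit Dab1 (3947) and Lrp8 (9384), and few nuclei the cholinergic class (1042).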
